A study of Mus musculus with 12 samples.

Results

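The regions described here are stretches of the mouse genome at which RNA from control striatum was recovered by an antibody to N1-methyladenosine (m1A) more than in the matched input, in at least 2 of 3 control libraries. Peaks of the 3 control lists that shared at least 1 bp were merged, which gave 6610 regions, and 2185 of them (33.1%) were called in 2 or more lists. These 2185 are called shared regions below. The 6 peak lists of the whole series hold 13572 merged regions. The shared regions were chosen by being called, so the fold enrichment, pileup and length of their peaks are descriptions, and no test was made on them.

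The control animals were adult male Tet1 fl/fl mice that received AAV-EGFP in the caudate putamen, the dorsal part of the striatum. Their Tet1 alleles carried loxP sites but were not cut, because the virus brought no Cre. Tissue was collected 2 weeks after the virus. RNA was broken for 4 min at 94 °C, and 90% of it was incubated with the m1A antibody for 3 h while 10% served as input. Libraries were primed with random hexamers after depletion of ribosomal RNA. The control group has 3 pull-down and 3 input libraries out of 12 samples in all. The other 6 samples are the pull-downs and inputs of the same strain given AAV-Cre-EGFP, and they are not used here. The labels do not say that the numbered libraries came from separate animals, so their spread may be technical. The injected tissue holds every cell type of the caudate putamen, and the labels name no promoter for the virus.

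m1A is a methyl group on the face of adenine that pairs with uracil, so it blocks ordinary base pairing and gives the base a positive charge. It is best known from the T-loop of cytosolic tRNAs, where the TRMT6 and TRMT61A enzymes place it and where it helps the tRNA to fold. It also occurs in mitochondrial tRNA, ribosomal RNA and messenger RNA, and antibody studies of messenger RNA have placed signal near transcript starts, in GC-rich 5′ leaders. Most neurons of the striatum are medium spiny neurons, inhibitory projection cells that respond to dopamine through cyclic AMP.

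A recurrent feature of the regions was a position just downstream of an annotated gene start. The sequences at the starts of 8 genes are shown because their start regions had the highest mean percentile ranks of fold enrichment among those called in all 3 lists. Each line gives the 50 bases before the start in lower case and the first 30 transcribed bases in capitals, 5′ to 3′ on the gene's strand. The sequences are RefSeq's for GRCm38.p6, at chr3:56183672-56183751 (minus strand) for Nbea, chr5:115158147-115158226 (minus) for Mlec, chr2:154656976-154657055 (plus) for Chmp4b, chr9:70678932-70679011 (plus) for Adam10, chr11:77607786-77607865 (minus) for Taok1, chr5:33274975-33275054 (minus) for Ctbp1, chr3:41083017-41083096 (minus) for Pgrmc2 and chr7:45128716-45128795 (minus) for Rpl13a.
Nbea: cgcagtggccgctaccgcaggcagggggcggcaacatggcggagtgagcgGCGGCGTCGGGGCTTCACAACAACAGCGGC
Mlec: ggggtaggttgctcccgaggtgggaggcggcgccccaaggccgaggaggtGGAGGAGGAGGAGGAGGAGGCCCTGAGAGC
Chmp4b: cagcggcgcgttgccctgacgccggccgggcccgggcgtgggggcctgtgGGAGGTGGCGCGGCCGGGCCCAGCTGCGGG
Adam10: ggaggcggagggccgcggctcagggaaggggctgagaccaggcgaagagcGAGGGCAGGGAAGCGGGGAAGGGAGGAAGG
Taok1: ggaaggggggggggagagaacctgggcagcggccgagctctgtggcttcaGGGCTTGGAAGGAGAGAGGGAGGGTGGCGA
Ctbp1: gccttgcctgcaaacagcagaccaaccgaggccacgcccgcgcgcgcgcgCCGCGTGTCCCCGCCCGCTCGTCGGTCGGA
Pgrmc2: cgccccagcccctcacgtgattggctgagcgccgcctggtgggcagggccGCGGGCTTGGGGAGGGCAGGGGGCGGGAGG
Rpl13a: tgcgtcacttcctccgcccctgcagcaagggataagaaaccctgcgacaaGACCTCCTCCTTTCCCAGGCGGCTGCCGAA
The first 50 transcribed bases of these 8 starts had a GC content of 68.0% (Mlec, Taok1 and Rpl13a) to 84.0% (Chmp4b and Ctbp1). Rpl13a encodes a protein of the large ribosomal subunit, and its start region had a fold enrichment of 15.6, 19.6 and 23.4. Fold enrichment here is the authors' own value for each peak, the pull-down signal at the summit over the local background, and pileup is their tag coverage at the summit. Nbea encodes neurobeachin, a protein of membrane traffic to the synapse, and its region lay at chr3:56183363-56183701, with one edge on the annotated start. The fold enrichment there was 33.0 in control 1, 43.6 in control 2 and 42.5 in control 3. Its summit lay 178, 180 and 187 bp after the start, so the lists placed it within a few bases of each other. Mlec encodes malectin of the endoplasmic reticulum, and its start region had a fold enrichment of 23.5, 27.5 and 21.4. The region at Adam10, which encodes a membrane protease that sheds surface proteins, had values of 16.1, 37.0 and 22.8, and control 1 was the lowest. Ctbp1, a transcriptional corepressor, had values of 22.2, 19.4 and 22.7, which are close together in all 3 lists.

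Start positions were read for the 2117 shared regions on chromosomes that the table of RefSeq starts covers. The starts of chromosome 18, which has 56 shared regions, and of the mitochondrial genome were not used here. In 640 of the 2117 regions (30.2%), the summit lay 1 to 500 bp after a start in every list that called the region, and 217 of these were called in all 3 lists. By list, 28.8%, 30.6% and 31.0% of summits in shared regions lay 1 to 500 bp after the nearest start (mean 30.1% ± 1.18, SD, n = 3). In the equal window before a start the shares were 2.94%, 3.09% and 3.08% (3.04% ± 0.0811, SD, n = 3). The downstream share was higher than the upstream share in each list. The libraries hold RNA, and its coverage on either side of a start was not compared, so this difference cannot be credited to the antibody. The rule makes the lists hold largely the same regions here, so their small spread is no measure of agreement, and in single-list peaks the downstream share had an SD of 12.6 over the 3 lists. The lists carry no strand, so a summit was set against the nearest start on either strand, and transcripts running the other way could not be told apart.

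Within those 500 bp the summits were concentrated in a narrow band. The band beyond 100 bp and up to 300 bp after a start held 21.9%, 22.3% and 23% of summits in shared regions, and the first 100 bp held 1.85%, 1.93% and 1.71%. The median distance of the downstream summits was 207 bp in control 1, 210 bp in control 2 and 208 bp in control 3. The edge of the 640 regions nearer the start had a median position of 73.0 bp after the start, with quartiles of 39.0 and 116 bp, and the farther edge had a median of 371 bp. The nearer edge lay within 50 bp of the annotated start in 177 regions (27.7%). Tags were extended to modelled fragments of 170 to 177 bp, so a summit cannot be read as the position of a methylated base. The part of this extension in the low share of the first 100 bp was not tested. Regions called in a single list had a downstream share of 26.5% in control 2 and 27.5% in control 3, close to the shared regions, but 5.14% in control 1.

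**Figure D1:**
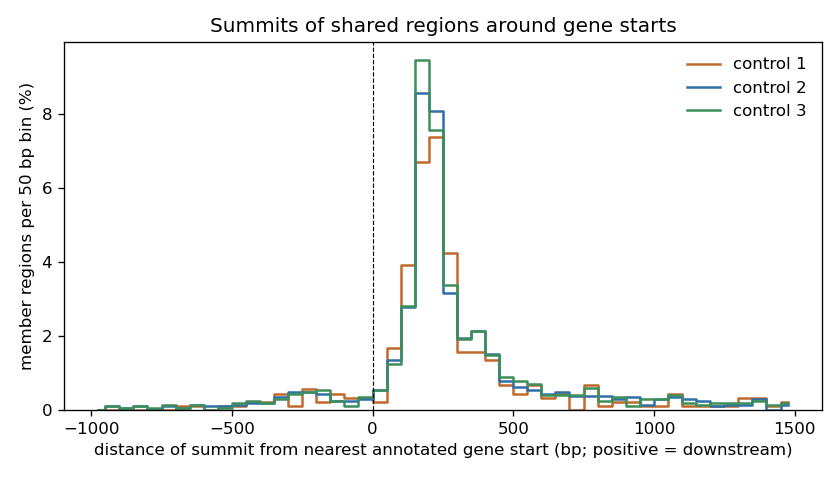
Position of the summit of each shared region relative to the nearest annotated gene start, in bins of 50 bp, as a percentage of the shared regions of that control list on chromosomes with start positions; each line is 1 control list. The 3 lines peak together between 100 and 300 bp downstream of the start and stay low upstream of it.

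The starts next to shared regions were GC-rich. Over 625 start windows of protein-coding genes with a shared region at the start, the median GC content of the first 50 transcribed bases was 70.0%, with quartiles of 64.0% and 76.0%. For 906 start windows of genes whose shared regions all lay elsewhere the median was 66.0%, and for all 21263 protein-coding starts it was 60.0%. In the 250 bases before the start the medians were 64.8%, 60.8% and 55.6% in the same order. The first transcribed base was an A at 25.3% of the starts with a shared region, 27.6% of the starts of genes with regions elsewhere and 37.4% of all starts. The T-loop motif GTTCNANNC, searched on both strands of the 300-base windows, was present in 6.56%, 6.29% and 8.43% of windows, in that order. These windows reach 50 bases past the start, while most summits lay beyond that, so the windows do not cover the sequence under the peaks.

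Few regions had a summit just upstream of a start. In 40 shared regions every summit lay inside a promoter window, from 250 bases before to 50 bases after a start. The region in Kat5, which encodes a histone acetyltransferase, was at chr19:5609750-5610040 and had a fold enrichment of 18.1, 14.9 and 11.1, with summits 128 to 140 bp before a start of the same gene. Gtf2a1, a subunit of general transcription factor IIA, had values of 13.9 and 9.41 in controls 2 and 3, and its summits lay 187 and 169 bp before the start.

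Controls 2 and 3 overlapped far more with each other than with control 1. Controls 1, 2 and 3 had 3179, 3444 and 3004 peaks from 459332, 1097292 and 864206 pull-down tags. All 3 lists called 759 regions, controls 2 and 3 alone shared 1258, controls 1 and 2 alone 104, and controls 1 and 3 alone 64. The shared regions took in 30% of the peaks of control 1, 62.3% of control 2 and 70.1% of control 3. Control 1 had the fewest tags, and per the file headers its duplicate tags were all kept while the other lists kept 1 tag per position. The part of depth and of duplicate handling in this overlap was not tested.

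**Figure D2:**
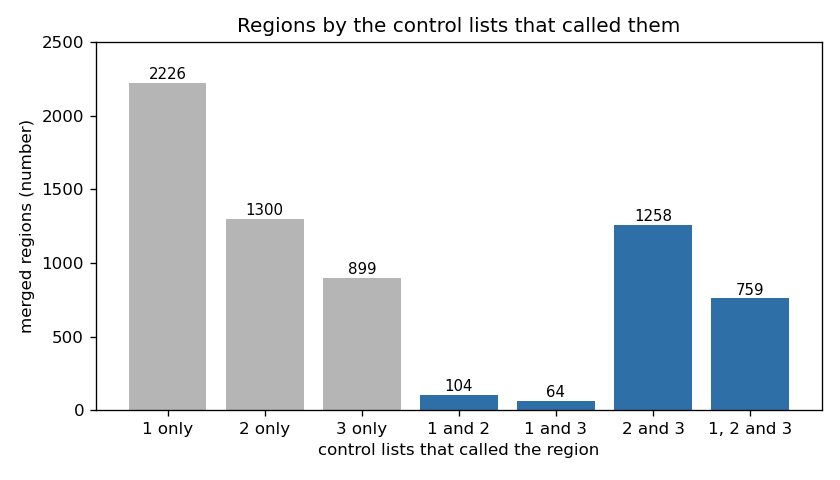
Number of merged regions called in each combination of the 3 control lists; grey bars are regions of a single list and blue bars are shared regions. The bar for lists 2 and 3 (1258) is the tallest of the shared ones, and the bar for list 1 alone (2226) is the tallest of all.

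The median fold enrichment in shared regions was 7.65, 7.82 and 7.72 in controls 1, 2 and 3 (mean 7.73 ± 0.0854, SD, n = 3). The single-list peaks had medians of 3.84, 6.43 and 6.41. The median pileup in shared regions was 15, 25 and 21 tags, against 3, 12 and 12 in single-list peaks. These medians cover different sets of regions in each list, 953 peaks of control 1, 2144 of control 2 and 2105 of control 3. Over the 759 regions called in all 3 lists, the median fold enrichment was 8.0, 9.79 and 9.52 and the median pileup 16, 34 and 29 tags, so control 1 was lowest in both. The median peak length in shared regions was 220, 274 and 262 bp. In control 1, 94.4% of single-list peaks were exactly 1 modelled fragment long, against 21.0% of its peaks in shared regions. In controls 2 and 3 the single-list shares at that length were 23.2% and 26.4%, so the shortest peaks were mostly those of control 1. Merged shared regions had a median length of 316 bp, ranged from 176 to 6184 bp, and 25 were over 1000 bp.

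The summits of the same region were close in different lists. Over 2017 regions called in controls 2 and 3, the median distance between the summits was 20 bp, and 76.6% lay within 50 bp. For controls 1 and 2 the median was 24.0 bp over 863 regions, and for controls 1 and 3 it was 23 bp over 823. Across regions, the fold enrichment of controls 2 and 3 had a Spearman correlation of 0.717, against 0.515 for controls 1 and 2 and 0.523 for controls 1 and 3. These coefficients describe regions chosen by being called in both lists, and regions are not independent replicates. The fold enrichment agreed within 2-fold for 95.9% of regions in controls 2 and 3, 82.4% in controls 1 and 2 and 84.4% in controls 1 and 3.

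Shared regions lay in 1759 genes, which is 40.1% of the 4391 genes with a peak in any control list. Of 21900 RefSeq protein-coding genes, 1567 (7.16%) had a shared region. Protein-coding genes held 1982 regions (90.7%), long non-coding RNA genes 56 (2.56%) and other genes 39, and 108 (4.94%) had no annotated gene at any summit. Exons and introns were not separated, because only gene spans were used. The protein-coding genes with 1 shared region had a median span of 37.5 kb and those with 2 or more 36.2 kb, against 17.1 kb for all protein-coding genes and 56.5 kb for genes with peaks but no shared region. The shared regions were therefore in genes longer than the typical gene but shorter than those with unshared peaks.

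Transfer RNA genes, the classical carriers of m1A, were present but few. Of 408 nuclear tRNA genes, 15 (3.68%) were overlapped by 14 shared regions, 11 of them called in all 3 lists. Of all 49997 RefSeq genes, 3.52% had a span that held a summit of a shared region. The tRNA share counts any overlap instead, and these tRNA genes are only 72 or 82 bp long. The shares are therefore unlike measures, and no conclusion about tRNA genes is drawn from them. They were 5 of 16 genes for the methionine tRNA with anticodon CAT, 3 of 12 for glutamate CTC, 2 of 10 for histidine GTG, 2 of 16 for aspartate GTC, 2 of 5 for leucine AAG and 1 of 7 for glycine TCC. The region at n-TMcat8, a methionine tRNA gene on chromosome 13 at chr13:21974895-21975097, had a fold enrichment of 20.2, 12.7 and 13.0. That at n-THgtg3, a histidine tRNA gene at chr2:122377212-122377424, had values of 11.5, 15.4 and 11.0. Both regions overlapped the tRNA gene, but no summit lay inside it. Of the nuclear tRNA genes, only n-TEctc5, n-TEctc8, n-TMcat7, n-TMcat2 and n-THgtg4 held a summit. The highest pileup over any of the 14 tRNA regions was 20 tags, so their depth was low. tRNA genes share near-identical copies, so the copy that gave the tags is uncertain.

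Other structured RNAs were among the regions with the highest coverage, at moderate fold enrichment. Rn7s1 and Rn7s2 are copies of the 7SL RNA, the scaffold of the signal recognition particle that targets proteins to the endoplasmic reticulum. Rn7s1 had a pileup of 22013, 257 and 258 tags and a fold enrichment of 4.28, 4.91 and 7.23. Rn7s2 had 20593, 257 and 261 tags, with a fold enrichment of 4.52, 4.98 and 7.68. In both, control 1 was far above the other lists in pileup and the lowest in fold. Controls 2 and 3 kept 1 tag per position, which caps their pileup, and their highest values at any peak were 271 and 261 tags. Pileups this high are therefore not on the same scale in control 1 and the other lists. Input tags were filtered for duplicates too, with 4274420 of 6328534 kept in control 2 and 5112099 of 7961880 in control 3. The part of this filter and of depth in the fold enrichment at these loci was not tested. Rn7sk, the 7SK RNA that holds the elongation kinase P-TEFb inactive, had 1238, 229 and 229 tags and a fold enrichment of 5.08, 5.4 and 7.91. Rpph1, the RNA of RNase P that trims tRNA precursors, had 1154, 217 and 205 tags and a fold enrichment of 2.67, 4.80 and 6.97. Rmrp, the RNA of the related RNase MRP, was called in controls 2 and 3, at 3.90 and 5.71. Of 1004 small nuclear RNA genes 12 (1.2%) were overlapped, Rnu1b6 of the U1 family among them, at 5.0, 4.90 and 10.8. Of 1228 microRNA genes 8 (0.651%) were overlapped, Mir7000 in Mapk8ip1 and Mir7045 in Chd4 among them, and their regions extended well beyond the hairpin. Of 1340 small nucleolar RNA genes 2 (0.149%) were overlapped. These shares are under the 3.52% of all RefSeq genes whose span held a summit, which is an unlike measure.

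Of 13 genes of 7SK RNA and P-TEFb control, 4 (30.8%) had a shared region, against 7.16% of all protein-coding genes. That was 57.1% of those with any peak, against 40.1% of all such genes. They were Rn7sk itself and 3 genes of proteins that act with it. Hexim1, which binds 7SK RNA and inhibits P-TEFb, had a start region at chr11:103116253-103116625 with a fold enrichment of 24.4, 16.4 and 14.2. Aff4, a scaffold of the super elongation complex, had 11.9, 10.4 and 7.59, and Mepce, which caps 7SK RNA, had 8.13 and 10.4 in controls 2 and 3.

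Mitochondrially encoded messenger RNAs had shared regions in most of their genes. There were 11 shared regions on the mitochondrial chromosome, and 10 of its 13 protein-coding genes held a summit, against 7.16% of all protein-coding genes. The median percentile rank of these 10 genes was 97.5 for pileup and 56.8 for fold enrichment. Over all genes with a shared region it was 63.3 and 65.1, and the part of high coverage in the share was not tested. Ranks were averaged over the lists that called a region. The median fold rank of shared regions was 83.3 in control 1, 58.5 in control 2 and 58.6 in control 3. ND1, a subunit of respiratory complex I, had the highest values, with a fold enrichment of 14.6, 13.5 and 17.2 and a pileup of 175, 162 and 150 tags over positions 2793 to 3664. CYTB of complex III had 5.17, 9.30 and 9.62, and ATP6 of ATP synthase had 4.37, 8.94 and 10.4. COX1 of complex IV had 2 regions, and the one called in all lists had values of 2.76, 3.19 and 4.20, near the bottom of the fold range. The regions of ND5 and ND6 reached into 4 of the 22 mitochondrial tRNA genes (TrnH, TrnS2, TrnL2 and TrnE). The nuclear-encoded subunits of oxidative phosphorylation had shared regions in 8 of 85 genes (9.41%), near the 7.16% of all protein-coding genes. Cox6a1 of complex IV led them, with a start region at 10.6, 12.7 and 16.3.

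Of the 12 regions in annotated genes with the highest ranks of fold enrichment, 1 (Nbea) lay at a gene start. First in rank was a region within both Cmss1 and Filip1l, at chr16:57391251-57391715, with 162, 66.8 and 43.9. Both genes are among the loci to which reads of ribosomal RNA are often assigned, which are described below. Wasf3, which drives branching of actin filaments through the Arp2/3 complex, had 30.5, 32.2 and 36.1 at chr5:146472723-146473209. Nova1, a splicing factor of neurons, had 24.7, 37.0 and 34.4 over an 885 bp region at chr12:46707547-46708431. Control 1 was the lowest list for Nova1 and Wasf3 but the highest for Cmss1 and Filip1l. Dlgap2, a scaffold protein of the postsynaptic density, had 24.6, 34.8 and 20.9. Cdh4, a cadherin of cell adhesion, had 18.2, 41.7 and 33.4, and Dpagt1, which starts protein N-glycosylation, had 17.4, 48.0 and 41.9. Zdhhc4, a palmitoyltransferase, had 26.3, 41.6 and 32.1, and Bcr, a regulator of small GTPases, had 22.8, 30 and 25.6. The remaining genes were Lrrc1, Zfat and Lrrfip2, with values between 21.8 (Lrrfip2 in control 3) and 48.4 (Lrrfip2 in control 1).

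**Figure D3:**
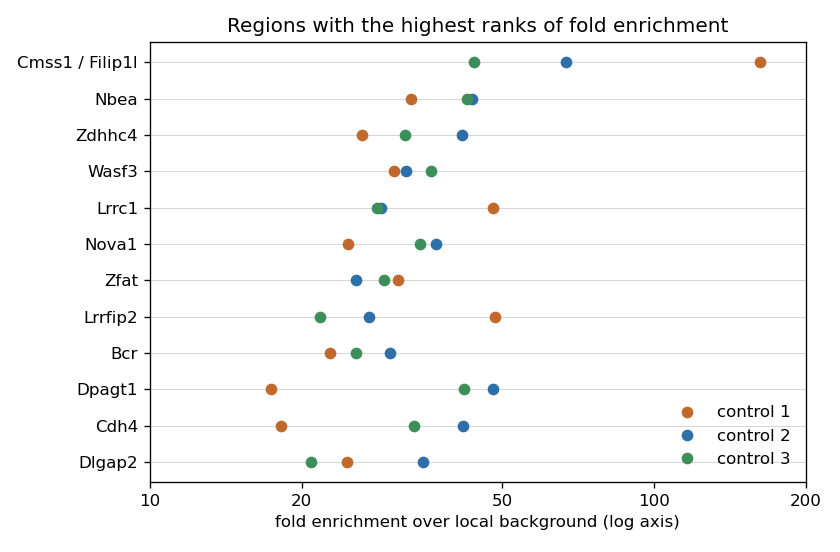
Fold enrichment over the local background, on a log axis, of the 12 regions in annotated genes called in all 3 control lists that had the highest mean percentile of fold enrichment; each point is 1 list. Control 1 reaches 162 at Cmss1 / Filip1l, and is the lowest of the lists at Dpagt1 (17.4) and Cdh4 (18.2).

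Regions without an annotated gene included the longest of all. A region at chr17:13585519-13591702, 6184 bp long, had a fold enrichment of 72.1, 68.8 and 85.6 and a pileup of 292, 262 and 186 tags. A neighbour at chr17:13654457-13655318 had 76.6, 39.7 and 49.6. Both were high in every list. The next longest regions lay in Fhit (2443 bp, controls 2 and 3 at 14.5 and 12.0), Slc6a17 (2153 bp), Shank1 (2076 bp), Ndufaf6 (1979 bp) and Dnajc3 (1683 bp). Ndufaf6, an assembly factor of complex I, had a fold enrichment of 13.3, 35.4 and 28.8, and Dnajc3, a chaperone of the endoplasmic reticulum, had 16.9, 19.9 and 15.4.

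Among regions called in exactly 2 lists, the 6 with the highest ranks of fold enrichment were all called in controls 2 and 3. Celf4, which binds messenger RNA in neurons, had 33.1 in control 2 and 31.8 in control 3. Clk2, a kinase of splicing factors, had a start region at 29.4 and 24.5, inside the overlapping gene model Gm45927 as well. Ssbp2 had 32.4 and 19.5, Kcnip1, which modulates potassium channels, 24.5 and 19.2, Tceal5 20.8 and 20.4, and Camta1 23.8 and 17.9. Absence from control 1 means only that no peak was called there at its depth.

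Several genes that mark the striatum had shared regions. Of 20 markers of medium spiny neurons, 9 (45.0%) had a shared region, against 7.16% of all protein-coding genes. Among genes with any peak the shares were 56.2% and 40.1%. Ppp1r1b encodes DARPP-32, the dopamine-regulated phosphatase inhibitor, and its region at chr11:98348748-98349293 had a pileup of 203, 190 and 165 tags, with a fold enrichment of 7.87, 6.01 and 7.39. Adcy5, the main adenylyl cyclase of these neurons, had 91, 202 and 192 tags at 8.0, 7.33 and 9.36 over a region at chr16:35155607-35157060. Pde10a, which degrades cyclic nucleotides, had 5 regions, and the highest in rank had a fold enrichment of 9.73, 13.7 and 10.6. Gng7, the G protein subunit that works with the striatal olfactory-type G protein, had 16.0, 17.5 and 13.6. Penk, Bcl11b, Foxp1 and Arpp21 also had shared regions. The dopamine receptor Drd1, the peptide precursors Tac1 and Pdyn, and Rgs9 had no peak in any control list, while Drd2 and Adora2a had a peak in a single list. The median percentile rank of these 9 genes was 83.0 for pileup and 34.5 for fold enrichment, against 63.3 and 65.1 over all genes with a shared region.

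The wider dopamine and cyclic AMP pathway had shared regions in 20 of 54 genes (37.0%), or 60.6% of those with any peak, against 40.1% of all genes with any peak. From receptor to kinase, these were G protein subunits (Gnb1, Gnai1, Gnai2, Gnao1, Gnas, Gng7), adenylyl cyclases (Adcy1, Adcy5), phosphodiesterases (Pde1b, Pde7b, Pde10a), regulators of G protein signalling (Rgs7, Rgs7bp), anchors and regulators of protein kinase A (Akap5, Prkar1a), phosphatase subunits (Ppp1cc, Ppp3ca, Ppp3r1) and the transcription factor Creb1, beside Ppp1r1b. Gnb1, the common beta subunit, had a start region at 20.3, 14.3 and 23.2. Pde7b, a phosphodiesterase for cyclic AMP, had 15.2, 18.9 and 15.7. Gnai2 had 8.04, 9.81 and 13.0, the inhibitory branch of the pathway. None of the dopamine receptor genes had a shared region in this list.

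Postsynaptic scaffolds had one of the highest shares of genes with a shared region among the 38 lists. They numbered 21 of 34 genes (61.8%), or 80.8% of the 26 with any peak, against 40.1% of all genes with any peak. All 3 layers of the scaffold were present, with Dlg1, Dlg2 and Dlg4 near the membrane, Dlgap1 to Dlgap4 between, and Shank1, Shank3 and Homer1 deeper. Homer1 had a fold enrichment of 8.80, 14.7 and 14.8 and a pileup of 45, 113 and 99 tags. Shank3 had 4 regions, the highest in rank at 11.7, 12.7 and 10.7, and Shank1 also had 4. Camk2b, a subunit of the calcium-dependent kinase of the synapse, had 10.6, 8.61 and 10.7, with 110, 158 and 149 tags. Cnksr2, a scaffold of Ras signalling, had a start region at 8.45, 9.81 and 11.9. The 10 genes called in all 3 lists had no list that was always highest.

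Glutamate receptors and their auxiliary subunits had shared regions in 13 of 40 genes (32.5%), or 44.8% of those with any peak, near the 40.1% of all genes. Cacng4, an auxiliary subunit of AMPA receptors, had 10.1, 51.1 and 25.8, which spread widely between lists. The kainate receptor gene Grik5 had 18.5, 21.1 and 10.4. The NMDA receptor genes Grin1 and Grin2b had low values, with 5.75, 3.35 and 3.74 at a start region of Grin1 and 5.74, 3.63 and 7.37 in Grin2b.

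The presynaptic side gave 16 of 55 active zone and vesicle genes (29.1%) and 10 of 33 SNARE genes (30.3%). Among genes with any peak these were 45.7% and 71.4%, against 40.1% overall. Syn1, which tethers synaptic vesicles, had 11.7, 14.2 and 16.8. Vamp2, the vesicle SNARE, had 4 regions, and the highest in rank had 7.90, 8.67 and 10.0. Cplx1, a clamp of fusion, had a start region at 10.1, 8.76 and 15.4, and Snph, which anchors mitochondria in axons, had 9.11, 25.2 and 16.4. Bsn, a giant scaffold of the active zone, had 6 regions and none called in all 3 lists. Adhesion molecules across the synapse gave 17 of 46 genes (37.0%; 63.0% of those with any peak), with Nrxn2 at 15.4, 12.6 and 12.7 and its partner Nlgn2 at 9.80, 10.8 and 7.72. Voltage-gated channels gave 15 of 65 (23.1%; 39.5% of those with any peak), where Cacna1a, the pore of P/Q-type calcium channels, had 7.38, 7.67 and 8.07. GABA signalling, the transmitter system of medium spiny neurons, gave 4 of 28 (14.3%; 57.1% of those with any peak), with Gabbr1 at 5.86, 7.07 and 8.69.

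Proteins that link and stabilise the neuronal cytoskeleton came next. Spectrins, ankyrins, microtubule-associated proteins and neurofilaments had shared regions in 20 of 35 genes (57.1%), out of 25 with any peak. The adducins Add1 and Add3, which join spectrin to actin, had start regions at 8.99, 17.5 and 10.3 and at 9.29, 17.5 and 21.2. Sptan1, the alpha spectrin of neurons, had a start region at 6.16, 12.3 and 16.7, and Ank3, which organises the axon initial segment, had 6.23, 12.9 and 11.2. Control 1 was the lowest list in these 4 genes. Actin, tubulin and their nucleators gave 15 of 55 genes (27.3%, or 62.5% of those with any peak). Among them were Abi1, Abi2 and Cyfip2, whose products are found in complexes with Wasf3. Abi1 had 13.3, 20.5 and 12.1, and Cyfip2 had 9.47, 15.3 and 16.1, both near a start. Motor proteins gave 14 of 66 (21.2%; 51.9% of those with any peak), led by Dynll2, a dynein light chain, at 7.30, 9.96 and 12.2.

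Of 80 neuronal splicing factors and RNA-binding proteins, 32 (40.0%) had a shared region, or 59.3% of those with any peak, against 7.16% of all protein-coding genes and 40.1% of all genes with any peak. Of the 32, 17 were called in all 3 lists. After Nova1, the splicing activator Srsf5 had a start region at 20.3, 15.3 and 25.3, and Hnrnpab had 19.5, 18 and 17.2. Hnrnpa0 had 15.5, 11.5 and 18.3, and Hnrnpu, which organises nuclear RNA, 7.20, 13.9 and 17.5. Of 22 enzymes and readers of m1A and m6A, 4 (18.2%; 57.1% of those with any peak) had a shared region. They were Alkbh3, a demethylase reported to act on m1A (5.54 and 8.59 in controls 1 and 2), Trmt10b, a tRNA methyltransferase (7.64, 8.30 and 5.97), Virma of the m6A writer complex (15.3 and 18 in controls 2 and 3) and Ythdf3, a reader (7.62 and 7.18). Alkbh5, Fto and Zc3h13 had peaks in a single list only. The TET and DNA methylation list gave 2 of 17 (11.8%), Dnmt3a at 6.29 and 11.2 and Mbd6 at 6.30 and 6.12, both in controls 2 and 3. That was 28.6% of its genes with any peak, under the 40.1% of all such genes. Dnmt1, Mbd1, Mbd3, Mbd5 and Tet3 had peaks but no shared region.

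Chromatin and immediate early genes were represented too. Their shares stand against 7.16% of all protein-coding genes and 40.1% of all genes with any peak, as do those of the signalling lists that follow. Of 73 chromatin remodellers and modifiers 21 (28.8%; 51.2% of those with any peak) had a shared region, such as Chd4 with a start region at 21.7, 10.6 and 7.35. Of 25 immediate early genes 6 (24.0%; 54.5% of those with any peak) did. Egr1 had 31.5, 13.3 and 14.5 and Jund 22.4, 15.2 and 14.2, with control 1 highest in both. Nr4a1 had 9.93, 10.1 and 10.6, nearly the same in the 3 lists. Growth and energy signalling through mTORC1, autophagy and salt-inducible kinases gave 11 of 37 (29.7%; 50% of those with any peak), with Sik3 at 19.7, 14.5 and 13.9. Small GTPase regulators gave 17 of 97 (17.5%; 37.0% of those with any peak), and ubiquitin conjugation and removal 24 of 134 (17.9%; 45.3%).

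Among housekeeping families, cytosolic ribosomal proteins had shared regions in 9 of 87 genes (10.3%), chaperones in 10 of 96 (10.4%), histones in 4 of 84 (4.76%) and the proteasome in 2 of 48 (4.17%), against 7.16% of all protein-coding genes. Few of these genes had any peak, and of those that did 90% of the ribosomal proteins (9 of 10), 50% of the chaperones, 66.7% of the histones and 28.6% of the proteasome genes had a shared region, against 40.1% of all genes with any peak. Translation factors had 12 of 86 (14.0%), or 66.7% of those with any peak, and 1 of those 12 was called in all 3 lists, Eef2k, the kinase of elongation factor 2, at 6.59, 16.3 and 14.6. Hsp90b1, the endoplasmic HSP90, had a start region at 16.9 and 12.1 in controls 2 and 3. Psmd3 of the proteasome had 6.47, 11.0 and 10.9.

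Most markers of other cell types had no shared region, which also held for medium spiny neurons (9 of 20 had one). The shares below stand against 7.16% of all protein-coding genes and 40.1% of all genes with any peak. Of 14 oligodendrocyte markers 5 (35.7%, or 62.5% of those with any peak) had one. They included the myelin genes Mbp at 2.73, 4.19 and 5.36 and Mag at 3.68 and 4.37 in controls 2 and 3. The median percentile rank of the 5 genes was 6.97 for fold enrichment and 94.5 for pileup, so these were high-coverage regions of low fold. Only 1 of the 5 was called in all 3 lists. Ranks in control 1 run higher, so ranks of genes called without it are lower for that reason too. Astrocyte markers gave 3 of 14 (21.4%, and all 3 with any peak), with a median percentile rank of 8.44 for fold enrichment. Slc4a4 had 7.38, 14.5 and 15.3, while Gfap had 4.77 and 3.24 and Slc1a2 2.74 and 3.81 in controls 2 and 3. Microglia markers gave 1 of 12 (Laptm5 at 10.3, 11.0 and 16.7), endothelium markers 1 of 10 (Slc2a1) and striatal interneuron markers 1 of 12 (Sst at 2.93 and 3.75). No choroid plexus marker of 6 had one. Of 9 markers of cortical excitatory neurons only Slc17a7, a vesicular glutamate transporter, did, at 6.02, 5.96 and 10.4; the part of such cells in the synaptic lists was not tested.

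**Figure D4:**
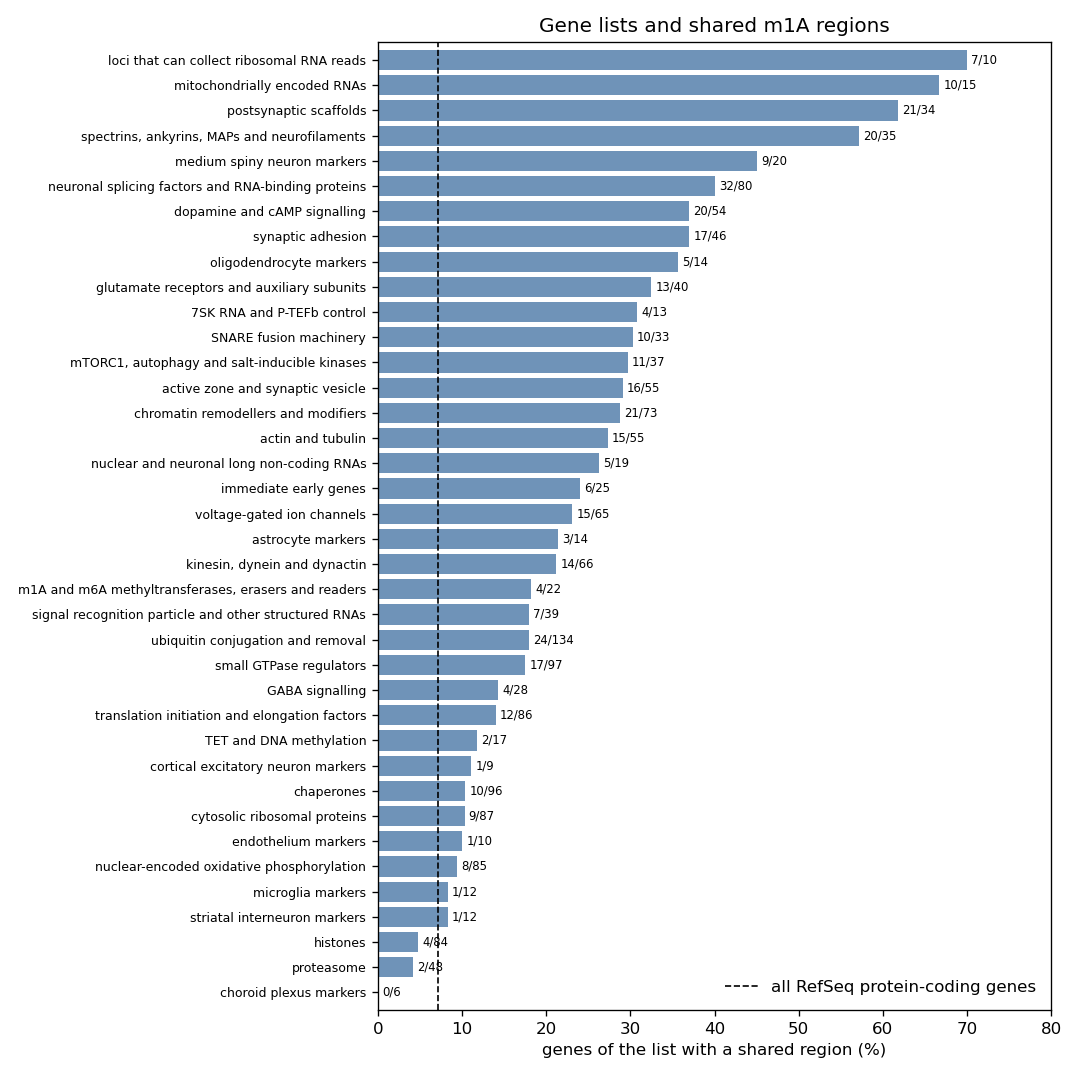
Percentage of the genes of each list that had a shared region; the numbers are genes with a region over genes in the list, and the dashed line is the 7.16% of all protein-coding genes. Postsynaptic scaffolds (21/34) and cytoskeletal linkers (20/35) stand far to the right of the line, and histones, proteasome and choroid plexus markers lie left of it.

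Some genes carried several regions each. Of the 1759 genes, 1406 had 1 shared region, 263 had 2 and 57 had 3. Atp2b2, the plasma membrane calcium pump, and Meg3, a maternally expressed long non-coding RNA, had 8 each. The Atp2b2 regions were spread over a span of 299 kb with fold enrichment from 2.82 to 23.2, while those of Meg3 lay within 30.7 kb at 2.31 to 7.56. Bsn, Ppp1r9b, Ddn and Malat1 had 6 each, and Snrnp70, Cacnb1, Map1b and Pde10a had 5. Ddn, which encodes dendrin, a protein of dendrites, has a span of only 4.14 kb, and its 6 regions were all called in controls 2 and 3 and not in control 1. Malat1, a nuclear RNA, had a span of 6.98 kb, and its main region at chr19:5800690-5801527 had a pileup of 427, 271 and 236 tags at 3.98, 4.45 and 5.68. Ppp1r9b, which encodes spinophilin of dendritic spines, had 6 regions in 15.7 kb, from 2.92 to 9.03. In Map1b 4 of its 5 regions lay in a stretch far from the start and 1 at the start, and only the start region was called in all 3 lists.

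Some regions had a pileup in control 1 that was out of proportion to the other lists. Over 863 regions called in both, the pileup of control 1 was at the median 0.5 times that of control 2, yet in 23 regions it was over 5 times higher. Between controls 2 and 3 no region differed by more than 3.67 times in that direction. Beside Rn7s1 (85.7 times) and Rn7s2 (80.1 times) they included Tmtc2 with 686, 10 and 8 tags, the long non-coding gene Gm19951 with 1118, 23 and 26, and Tlcd4 with 332, 22 and 29. The fold enrichment was also highest in control 1, at 126, 7.27 and 5.97 for Tmtc2 and 257, 19.1 and 20.2 for Gm19951. Of 10 loci to which reads of ribosomal RNA are often assigned, 7 (70.0%) had a shared region, with Cmss1 and Filip1l in 1 region. The share over all protein-coding genes was 7.16%. Lars2 had 60.6, 8.32 and 7.79, Cdk8 45.7, 5.92 and 6.50, Jarid2 52.4, 15.1 and 16.4, and Rn18s-rs5 21.3, 9.0 and 9.19, each with control 1 far above the others. The duplicate tags kept in control 1 were not counted per region, so their part in these values was not tested. Without the 23 regions 2162 shared regions remain.

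**Figure D5:**
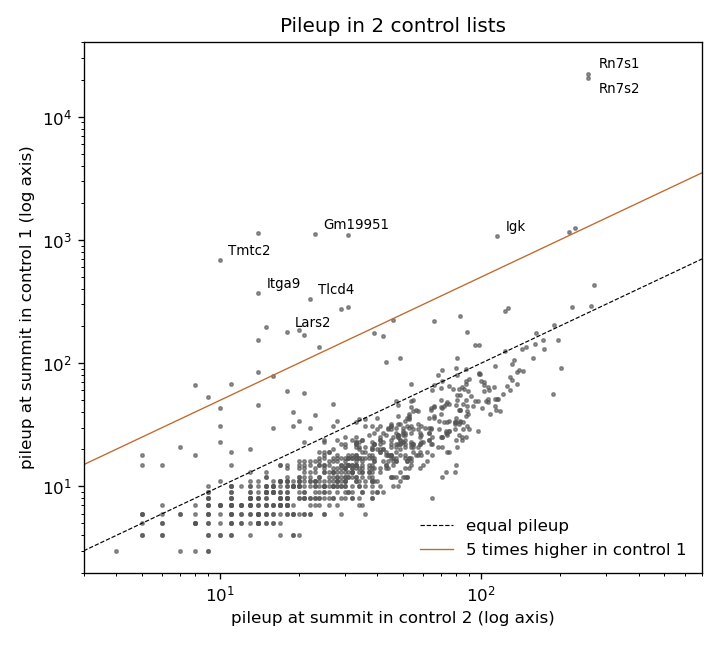
Pileup at the summit in control 1 against control 2, both on log axes, for the 863 regions called in both lists; each point is a region, the dashed line marks equal pileup and the orange line 5 times more in control 1. Most points lie below the dashed line, and 23 lie above the orange line, with Rn7s1 and Rn7s2 at the top.

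The edge of the rule touched few regions. The median stretch that lists shared was 216 bp, and 6 shared regions overlapped by under 50 bp. The least was 15 bp, in Pou3f1, where controls 1 and 2 had 8.32 and 4.68, followed by 19 bp in Lypla2, 31 bp in Lemd2, 43 bp in Stk24 and 44 bp in Socs7. Just outside the rule, peaks of different lists lay 6 bp apart in Gm6055, 12 bp apart in Lgmn and 51 bp apart in Meg3. The 2 peaks in Gm6055 had a fold enrichment of 5.86 in control 1 and 8.55 in control 3.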

How the data were processed

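Only the 3 control peak lists were used. Per the submitters' processing notes, reads were handled with cutadapt 2.8, HISAT2 2.1.0 and MACS2 2.2.6 on GRCm38. Per the file headers, calling used the matched input as background, a q-value of 0.01 and an extension of 150 bp, and control 1 kept all duplicate tags. The deposited lists give positions, pileup (a signal, tag coverage), the −log10 of the p-value and q-value, and fold enrichment (a ratio), all made by the authors. They hold no counts outside peaks, so no interval for counting error can be given.

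Merging and all summaries were made with Python 3.11.15, pandas 2.3.3 and numpy 2.4.6, and merging was tested on simulated peaks. A summit counted for each RefSeq gene (GRCm38.p6, 49997 spans) that held it, and a summit in over 3 genes for none. Start positions came from 32851 RefSeq windows of 27025 genes. Named were the 12 regions highest in mean percentile of fold (within list), 8 by pileup, the 6 longest, the 8 genes with most regions (ties kept), the 6 highest in exactly 2 lists, up to 6 genes per gene list, up to 8 in promoter windows, and those at the rule's edge. Other members of a list are named without values, and the regions without a gene, tRNA and other small RNA overlaps, start windows and pileup ratios were examined after their values were seen. The regions and the 38 gene lists were chosen with earlier results of these data known, and the search patterns of 3 lists were corrected after the files were opened. Alternatives changed the shared length, q, fold, list length, gene assignment and lists used. A few genes that the rule names are not reported here.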

Additional observations from a re-analysis of the deposited data

How the results depend on the processing

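Depth limits every absence: the deepest control had 1097292 tags, and an uncalled region may still carry m1A. No paired analysis was possible because the control group alone was described and no test compared groups. The number of shared regions was 2162 when 50% of the shorter peak had to be shared, 1964 at a −log10 q of at least 5, 2002 at a fold of at least 4 and 2079 with lists of equal length (3004 peaks). The mean of the per-list median folds, 7.73, was 8.10 at the stricter q, 8.04 at the stricter fold and 7.81 with equal lists, and the share of regions at gene starts was 31.5% at the stricter fold. Leaving out 1 control list at a time gave 824 (without control 2) to 2018 (without control 1) regions called in both remaining lists, which replace both the 2185 regions in 2 or more lists and the 759 in all 3. In the same settings the genes numbered 745 to 1643, the share in protein-coding genes was 87.7% to 90.9%, the median fold 7.80 to 8.52, the start share 28.8% to 30.9%, the median length 318 to 339 bp, and genes of the 38 lists 173 to 365 against 372. Fewer regions follow from the construction without control 2 or 3; the cause of the other shifts was not tested. Of 263 named regions, 262 were still called in at least 2 lists with 50% shared, 253 at the stricter q, 234 at the stricter fold, 261 with equal lists, 259 without control 1, 157 without control 2 and 161 without control 3. Of the 38 list counts, 1 moved by over 1.5 times at the stricter q, 3 at the stricter fold, 28 without control 2 and 27 without control 3, so most list counts rest on controls 2 and 3 together.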
